A study of Mus musculus with 6 samples.

Results

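The 38 genes described here encode the machinery that takes new secretory proteins into the endoplasmic reticulum (ER), folds them, attaches their glycans and removes those that fail to fold. They were taken from a list of gene symbols and grouped by function into 12 chaperones and folding factors, 6 disulfide enzymes, 6 translocon genes, 4 signal peptidase subunits, 6 glycosylation genes and 4 degradation genes. All 38 were found among the 54532 genes of the deposited expression table, and all 38 were among the 13619 genes that reached a mean of 1 FPKM and were tested. FPKM stands for fragments per kilobase of exon, a level that allows for gene length and library size.

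RNA from bone was sequenced in 3 wild-type (WT) libraries and 3 libraries of genotype MIR29cb2-/-, which lacks the microRNA cluster encoding miR-29b-2 and miR-29c. All 6 libraries came from female mice of the C57BL/6J strain aged 16 weeks, and no treatment, transgene or Cre driver is given for either group. Neither the bone used nor the handling of marrow is given in the labels, and no label says that the 3 libraries of a group are 3 animals. Every p-value here rests on the spread among libraries of a group, and that spread could be partly technical. Bulk bone RNA also mixes many cell types, so fewer cells of a type and less RNA per cell cannot be told apart.

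Proteins bound for secretion or for membranes enter the ER through the SEC61 channel, lose their signal peptide to the signal peptidase, and receive N-linked glycans from the oligosaccharyltransferase. In the lumen they meet the HSP70 chaperone BiP and the HSP90 chaperone GRP94, the lectin chaperones calnexin and calreticulin, and the protein disulfide isomerases. Proteins that cannot fold are handed to the ER-associated degradation pathway. When unfolded proteins accumulate, the sensors ATF6, IRE1 and PERK start the unfolded protein response, in which ATF6 and the spliced form of XBP1 raise transcription of many of these genes through promoter sequences named ER stress response elements. Osteoblasts and plasma cells, which export large amounts of collagen and antibody, depend on this machinery, as does the developing neutrophil when it fills its granules.

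The reads recovered from the FPKM steps came to 16861761 to 20301982 per library. This sum leaves out genes whose values did not give whole reads, so it is not the full depth. In each library 13097 to 14009 genes stood at 1 FPKM or more. A330023F24Rik, the long RNA that hosts the cluster, stood at 0.162 ± 0.0315 FPKM in WT and 3.28 ± 0.788 FPKM in knockout bone (SD, n = 3), and since it is not the microRNA itself it does not check the deletion. A pair of libraries, WT replicate 2 and knockout replicate 1, differed from the rest. Summed FPKM reached 489576 and 487102 in them and 355787 to 404994 in the other 4. Across all genes, the longer the exons the lower these libraries lay against their group (Spearman's rho of -0.42 and -0.45 between deviation and exon length), and in the other 4 rho was 0.18 to 0.41. The genes described here followed this split. WT replicate 2 was the highest WT library for 32 of the 38 genes, and knockout replicate 1 was the highest knockout library for 32 of 38. Among the 19 genes with the shorter exon length (1108 to 3745 bases) each of these held for 19, and among the 19 longer genes (3916 to 10431 bases) each held for 13.

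Most of the ER genes had higher mean levels in knockout bone, and the median difference varied with function. Of the 38 genes, 7 rose and 0 fell (limma on log2(FPKM + 1), Benjamini-Hochberg over all 13619 genes, threshold 0.05). The 7 were the chaperone genes Sdf2l1, Hyou1, Hspa5, Calr and Hsp90b1, the disulfide isomerase gene Pdia6 and the degradation gene Edem1. This was 18.4% of the 38, against 1.34% of all genes tested that rose, 3.82% that fell and 5.16% called in either direction. The list was chosen with earlier results of these data known, so this and the other shares given here describe it and do not test it. At an unadjusted p under 0.05, 24 of the 38 were higher and 0 lower, against 8.91% of all genes tested higher and 11.7% lower. The number of adjusted calls moved with the settings. With limma's voom on the recovered reads, 12 of the 36 genes with whole reads rose and 0 fell, against 1.34% of 12952 genes that rose and 4.65% that fell, and Edem1 lost its call (adjusted p = 0.0715). With no filter on low values 2 of the 38 rose, against 0.145% of all genes in that fit. Leaving out a single library gave 1 to 5 of the 38, against 0.104% to 0.566% of all genes. In 24 of 38 genes (63.2%) every knockout library lay above every WT library, against 14.7% of all genes tested, and in 0 genes every knockout library lay below every WT library, against 13.7%.

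The log2 difference, knockout minus WT, ran from -0.15 to 1.69 over the 38 genes, with a median of 0.51, and was positive in 35. The median over all genes tested was 0.06. By function the median was 0.82 for chaperones, 0.68 for disulfide enzymes, 0.46 for the translocon, 0.44 for glycosylation, 0.43 for signal peptidase and 0.16 for degradation. The summed level of the 38 genes was 1607 to 2138 FPKM in the WT libraries and 2544 to 3282 FPKM in the knockout libraries, a ratio of 1.54, and the groups did not overlap. The ratio of summed levels was 1.81 for the chaperones, 1.62 for the disulfide enzymes, 1.41 for glycosylation, 1.31 for the translocon, 1.26 for signal peptidase and 1.09 for degradation.

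**Figure D1:**
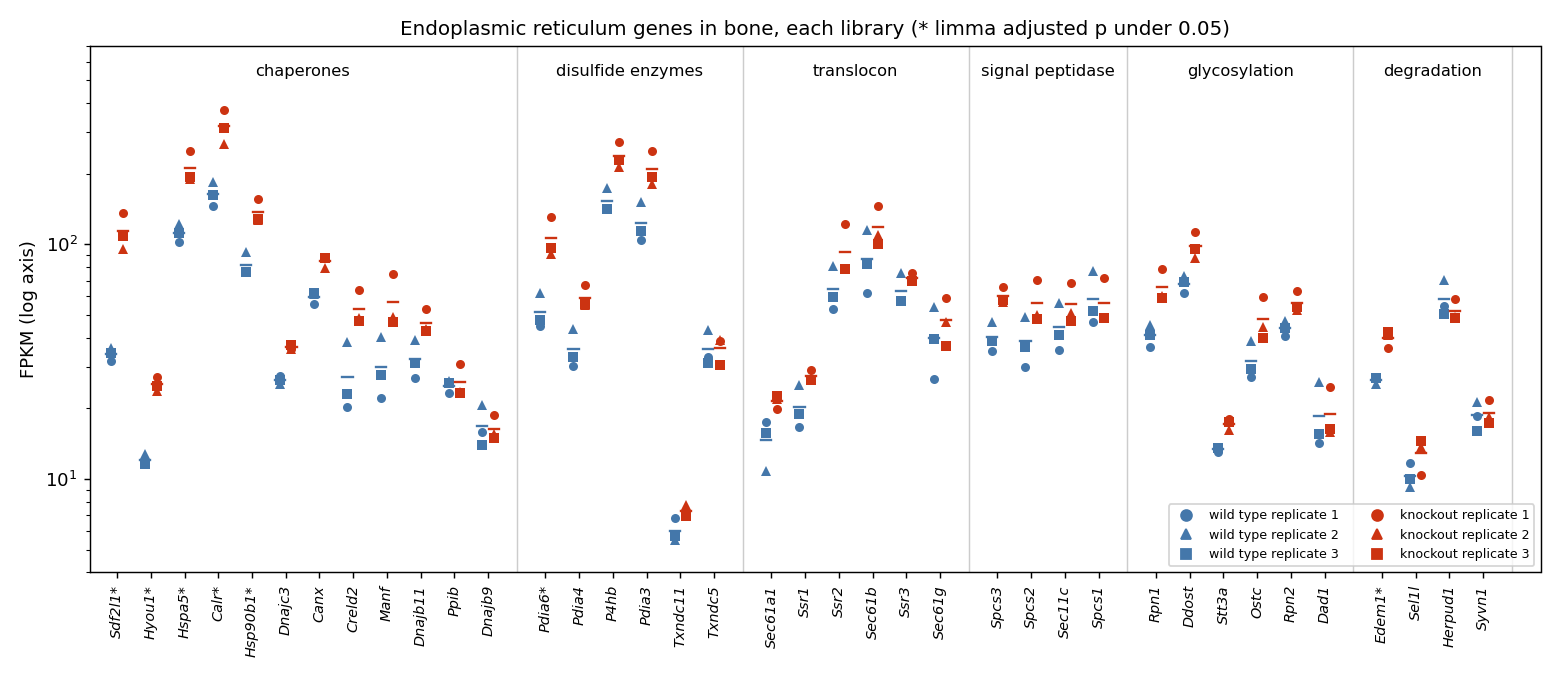
FPKM of each of the 38 ER genes in the 6 libraries (log axis), grouped by function; each point is 1 library, blue for WT and red for knockout with a marker shape for each replicate number, short lines are group means, and an asterisk marks an adjusted p under 0.05. The knockout points lie above all WT points in 24 genes, and the points overlap in 14, among them Ppib, Dnajb9, Txndc5, Dad1 and Spcs1.

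Sdf2l1 showed the greatest difference of the 38 genes. It encodes a small ER protein that binds the J-domain cochaperones of BiP. Its level was 31.9, 36.3 and 34.4 FPKM in WT replicates 1 to 3 and 136, 95.9 and 109 FPKM in knockout replicates 1 to 3. The lowest knockout library was thus far above the highest WT library. The means were 34.2 ± 2.18 and 114 ± 20.3 FPKM (SD, n = 3), a ratio of 3.32, and the log2 difference was 1.69 ± 0.16 (SE) with an adjusted p of 0.0071. Sdf2l1 (ENSMUSG00000022769) lies on chromosome 16 from 17130138 to 17132383, minus strand (mm10), and has an exon length of 1108 bases, the shortest of the 38.

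Hyou1 encodes GRP170, a large HSP70-like protein of the lumen that also exchanges nucleotide on BiP. Its values were 11.7, 12.8 and 11.6 FPKM in the WT libraries and 27.2, 23.6 and 25.0 FPKM in the knockout libraries, with no overlap. The mean went from 12.04 ± 0.643 to 25.3 ± 1.79 FPKM, a ratio of 2.098 (log2 difference 1.01 ± 0.11, adjusted p = 0.010). The gene (ENSMUSG00000032115) lies on chromosome 9 from 44379490 to 44392369, plus strand. Its 6 values had the least spread within groups of the 5 chaperone genes that rose. Leaving out WT replicate 1 moved its adjusted p to 0.0519, and it stayed below 0.05 without any other single library. Sdf2l1 stayed below 0.05 without each single library in turn.

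Hspa5 encodes BiP itself, the chief HSP70 chaperone of the ER and the protein that holds the stress sensors inactive. It stood at 103, 122 and 112 FPKM in WT and at 249, 189.9 and 194 FPKM in knockout bone. Every knockout library was above every WT library, with knockout replicate 1 the highest. The ratio of means was 1.88 (112 ± 9.46 to 211 ± 33.2 FPKM; log2 difference 0.90 ± 0.17, adjusted p = 0.0337). Hsp90b1, which encodes GRP94, gave 76.8, 92.3 and 75.9 FPKM in WT and 156, 126 and 128 FPKM in knockout libraries. The ratio of means was 1.67 (log2 difference 0.74 ± 0.16, adjusted p = 0.0457). Of its exon length, 10.3% is shared with the pseudogene 1810014B01Rik on the opposite strand, and the use of strand in the authors' counting is not given. Hspa5 (ENSMUSG00000026864) lies on chromosome 2 from 34771970 to 34777547, plus strand, and Hsp90b1 (ENSMUSG00000020048) on chromosome 10 from 86690209 to 86705509, minus strand.

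Calr encodes calreticulin, the soluble lectin chaperone that holds glycoproteins carrying a single glucose. It was the most abundant of the 12 chaperone genes. Its values were 145.0, 184 and 163 FPKM in WT and 372, 267 and 314 FPKM in knockout bone, again without overlap. The ratio of means was 1.94 (164 ± 19.8 to 318 ± 52.5 FPKM; log2 difference 0.94 ± 0.19, adjusted p = 0.0390). Calr (ENSMUSG00000003814) lies on chromosome 8 from 84841850 to 84846934, minus strand. Canx, the gene of its membrane-bound relative calnexin, stood at 55.4, 61.5 and 62.2 FPKM in WT and 88.6, 79.2 and 87.8 FPKM in knockout libraries. Those groups did not overlap, but the gene missed the threshold (ratio 1.43, log2 difference 0.51 ± 0.12, adjusted p = 0.0683).

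The adjusted p-values of Hspa5, Hsp90b1 and Calr lay close to the threshold. Leaving out any single library, in a fit with less replication, moved them to 0.0614 to 0.115 for Hspa5, 0.0611 to 0.147 for Hsp90b1 and 0.0655 to 0.129 for Calr. Their log2 differences stayed at 0.78 to 0.97, 0.64 to 0.83 and 0.82 to 1.06.

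A further 5 chaperone genes had every knockout library above every WT library without passing the threshold. Of the 12 chaperone genes 10 (83.3%) were free of overlap in this way, against 14.7% of all genes tested. Dnajc3 encodes p58IPK, a J-domain cochaperone, and Creld2 and Manf encode small luminal proteins known to be induced by ER stress. Their ratios were 1.38 for Dnajc3 (adjusted p = 0.0585), 1.95 for Creld2 (0.0760) and 1.90 for Manf (0.101). The values for Creld2 were 20.3, 38.4 and 22.9 FPKM in WT and 63.9, 48.3 and 47.0 FPKM in knockout bone. WT replicate 2, which stands apart in the whole series, was much the highest WT library for Creld2. Without it the gene's log2 difference was 1.25 with an adjusted p of 0.0355, against 0.98 and 0.0760 with all libraries. The fifth, beside Canx, was Dnajb11, which encodes a BiP cochaperone and had a ratio of 1.43 (adjusted p = 0.144).

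Ppib and Dnajb9 differed by less than the spread between libraries. Ppib encodes cyclophilin B, a prolyl isomerase that acts on procollagen, and was at 25.0 ± 1.60 FPKM in WT and 25.8 ± 4.35 FPKM in knockout bone (adjusted p = 0.929). As much as 25.0% of its exon length is shared with Snx22 on the opposite strand. Dnajb9 encodes ERdj4, a BiP cochaperone that is a well-known target of XBP1, and was at 16.8 ± 3.42 and 16.4 ± 2.04 FPKM (adjusted p = 0.963).

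**Figure D2:**
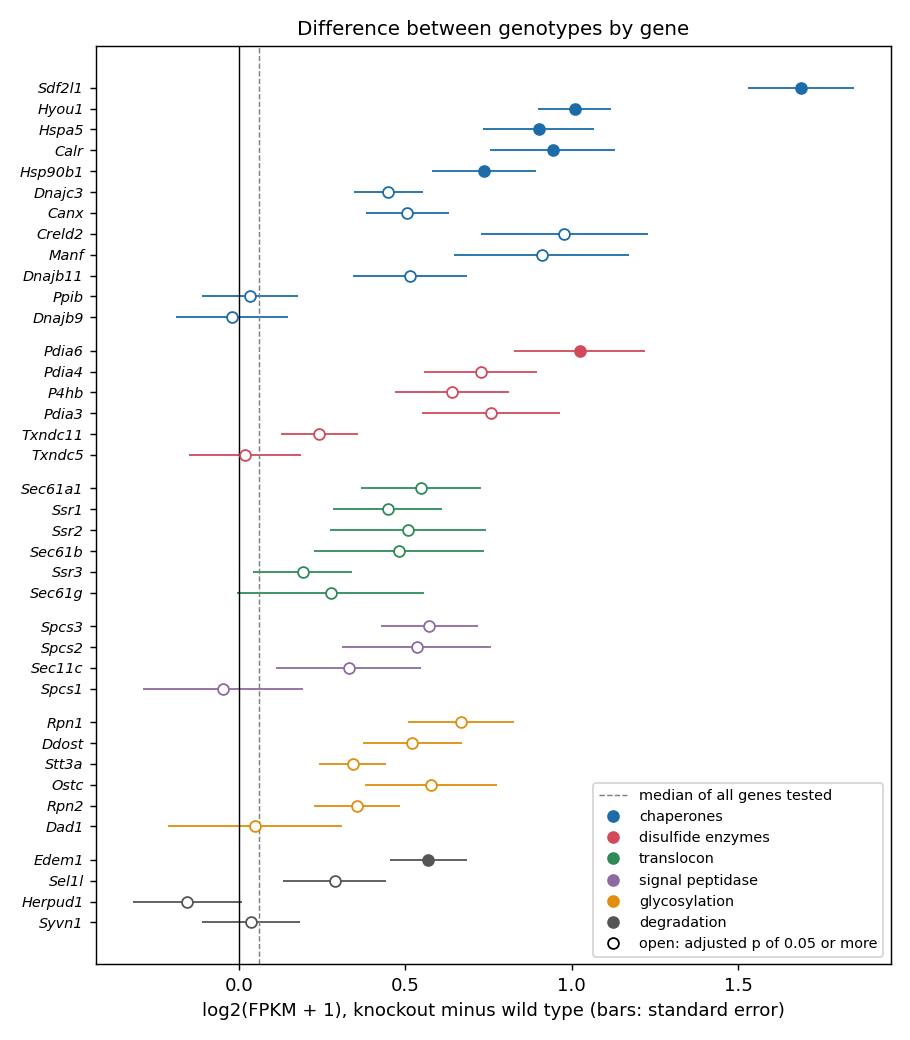
Log2 difference in log2(FPKM + 1), knockout minus WT, for the 38 ER genes by function; points are limma estimates, bars are 1 SE, filled points are the 7 genes with an adjusted p under 0.05, and the dashed line is the median of all genes tested (0.06). Sdf2l1 stands at 1.69, the other called genes run from 0.57 to 1.024, and Herpud1 is the lowest at -0.15.

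The stress elements in the promoters of these genes can be read from RefSeq windows that reach from 250 bases before to 50 bases after each annotated start (build GRCm38.p6, the same coordinates as mm10). A window was at hand for 31 of the 38 genes, and Hyou1 was among the 7 without one. The ER stress response element was searched on both strands as CCAAT, then 9 bases of any kind, then CCACG. The first box is the site of the factor NF-Y and the second that of ATF6. An exact match was found for 8 of the 31 genes (25.8%), against 37 of 27025 genes with a window (0.137%) and 15 of the 9616 tested genes with a window (0.156%). The matches are shown, because this element is the best known link between ER stress and such genes, with both boxes in capitals, each read on the strand where it matched.

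Hspa5: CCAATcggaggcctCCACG
Hsp90b1, upstream match: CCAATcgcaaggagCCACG
Hsp90b1, downstream match: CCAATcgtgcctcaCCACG
Calr: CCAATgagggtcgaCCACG
Pdia6: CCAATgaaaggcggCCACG
Canx: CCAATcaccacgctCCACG
Dnajc3: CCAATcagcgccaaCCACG
Creld2: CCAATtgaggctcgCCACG
Syvn1: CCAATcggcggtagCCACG

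The Hspa5 match lies at -65 to -47 from the start (chr2:34772025-34772043) and that of Pdia6 at -98 to -80 (chr12:17266491-17266509). Hsp90b1 holds a pair of exact matches, at -212 to -194 on the gene's own strand and at -107 to -89 on the other strand. Near matches were not searched, so a gene may hold more such elements than are shown here. The Calr match lies on the other strand at -162 to -144. Of the called genes with a window, 4 of 6 held a match (Hspa5, Hsp90b1, Calr and Pdia6), and of the genes not called 4 of 25 did (Canx, Dnajc3, Creld2 and Syvn1). By function, 6 of the 10 chaperone genes with a window, 1 of 6 disulfide enzymes and 1 of 4 degradation genes held one. None was found among the 4 translocon, 2 signal peptidase and 5 glycosylation genes with a window. The members were listed with their biology known, and the stress elements were first described in genes of this kind, so the high share is a description of the list.

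The windows of the called genes Sdf2l1 and Edem1 held no exact match with that spacing, which says only that these letters are not in the window. Both windows contain CCACG and CCAAT singly, as do most of the others. CCACG alone was present in 27 of the 31 genes, against 35.5% of all genes and 50.75% of tested genes with a window, and CCAAT alone in 27 of 31, against 41.1% and 42.65%. The stretch before and around the start of Hspa5 is shown with the matched boxes in capitals, together with that of Sdf2l1, which changed most and has no match.

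Hspa5, chr2:34771840-34772139, plus strand: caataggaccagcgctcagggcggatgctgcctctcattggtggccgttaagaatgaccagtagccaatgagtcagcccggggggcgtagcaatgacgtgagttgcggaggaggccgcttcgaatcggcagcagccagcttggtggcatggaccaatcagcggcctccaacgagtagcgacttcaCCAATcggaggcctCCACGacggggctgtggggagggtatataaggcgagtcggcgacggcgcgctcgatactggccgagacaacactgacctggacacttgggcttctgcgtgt
Sdf2l1, chr16:17132334-17132633, minus strand: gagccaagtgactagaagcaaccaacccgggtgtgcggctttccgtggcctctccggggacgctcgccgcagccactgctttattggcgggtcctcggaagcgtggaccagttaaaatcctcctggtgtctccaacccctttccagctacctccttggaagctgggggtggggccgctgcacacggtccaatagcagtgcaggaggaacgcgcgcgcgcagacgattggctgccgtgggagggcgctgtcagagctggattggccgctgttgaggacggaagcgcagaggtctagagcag

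The compact element ERSE-II was searched as ATTGG, any base, CCACG, and was found in 2 of the 31 genes, in 12 of the 27025 genes and in 9 of the 9616 tested genes. In Dnajb11 it lies at 7 to 17 after the start and in Herpud1 at -52 to -42. Herpud1 is a long-known carrier of this element, and its level did not differ between the groups beyond the spread of the libraries. The XBP1 site TGACGTGG, whose second part overlaps CCACG on the other strand, was found in Txndc5 and Txndc11, in 0.714% of all genes and in 1.019% of tested genes. Neither gene was called. Outside the list, 7 tested genes held the longer element. Chosen here after their values were seen, they ran from -0.56 for Adcy3 to 0.41 for Alg12 on the log2 scale, and Alg12 had the smallest adjusted p of them, 0.123.

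Among the 6 disulfide enzymes, Pdia6 rose, against 1.34% of all genes tested. It and 4 others had knockout libraries entirely above WT, against 14.7%. Protein disulfide isomerases form and reshuffle the disulfide bonds of folding proteins, and PDIA6 also dampens the IRE1 sensor. Pdia6 stood at 44.8, 62.3 and 47.4 FPKM in WT and 131, 91.2 and 96.0 FPKM in knockout bone. The lowest knockout value was 91.2 FPKM and the highest WT value 62.3 FPKM. The ratio of means was 2.06 (51.5 ± 9.44 to 106 ± 21.6 FPKM; log2 difference 1.024 ± 0.20, adjusted p = 0.0360). Pdia6 (ENSMUSG00000020571) lies on chromosome 12 from 17266545 to 17284770, plus strand. Without WT replicate 2 its adjusted p was 0.0487, and without any other single library it was 0.0775 to 0.124.

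P4hb encodes PDI, which is also the beta subunit of the prolyl 4-hydroxylase that matures collagen, and was the most abundant of the 6. It stood at 142, 174 and 141 FPKM in WT and 272, 213 and 229 FPKM in knockout libraries. These values did not overlap, and the difference missed the threshold (ratio 1.56, log2 difference 0.64 ± 0.17, adjusted p = 0.0837). Pdia3, the glycoprotein-specific isomerase that works with calnexin and calreticulin, had a ratio of 1.69 (adjusted p = 0.0879), and Pdia4 a ratio of 1.66 (0.0587). Without WT replicate 2 the adjusted p of Pdia4 was 0.0488. Txndc11 had non-overlapping values with a smaller ratio of 1.21 (0.3005). Txndc5 stood at 35.8 ± 6.41 and 36.2 ± 4.71 FPKM (adjusted p = 0.966).

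The translocon genes showed a smaller difference that the libraries did not resolve gene by gene. Of the 6, 0 passed the threshold with limma or with voom, 2 were higher at an unadjusted p under 0.05 (8.91% of all genes tested were), and all 6 log2 differences were positive, from 0.19 for Ssr3 to 0.55 for Sec61a1. Sec61a1 encodes the pore of the SEC61 channel and stood at 17.4, 10.8 and 15.7 FPKM in WT and 19.9, 21.9 and 22.6 FPKM in knockout bone. The groups did not overlap (ratio 1.47, adjusted p = 0.143). WT replicate 2 was the lowest library for Sec61a1, the opposite of its place for most of the 38 genes. Sec61b, which encodes a small subunit of the channel and was the most abundant translocon gene, stood at 61.8, 115 and 82.4 FPKM in WT and 146, 110.0 and 101 FPKM in knockout bone. Here WT replicate 2 exceeded 2 of the 3 knockout libraries (ratio 1.37, adjusted p = 0.358). Sec61g had a ratio of 1.19, and the genes Ssr1, Ssr2 and Ssr3 of the translocon-associated protein complex had ratios of 1.36, 1.44 and 1.14. For Ssr2, 12.8% of the exon length is shared with a pseudogene on the other strand.

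Among the signal peptidase subunits 0 of 4 passed the threshold with limma, and 2 were higher at an unadjusted p under 0.05, against 8.91% of all genes tested. With voom 1 of the 3 genes with whole reads rose, against 1.34%. Spcs3, an accessory subunit needed for the activity of the complex, stood at 35.2, 46.7 and 38.9 FPKM in WT and 65.9, 56.6 and 57.9 FPKM in knockout bone. It was the only one of the 4 without overlap between the groups (ratio 1.49, log2 difference 0.57 ± 0.15, adjusted p = 0.0755). Spcs1, the most abundant, stood at 46.8, 77.2 and 52.0 FPKM in WT and 72.1, 48.4 and 48.7 FPKM in knockout bone. Its WT replicate 2 and knockout replicate 1 were the 2 high libraries, and the other 4 ran from 46.8 to 52.0 FPKM (ratio 0.961, adjusted p = 0.943). Of its exon length, 16.3% is shared with Glt8d1 on the opposite strand. Spcs2 had a ratio of 1.45 and Sec11c, which encodes a catalytic subunit, a ratio of 1.26, both with overlapping groups.

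Of the 6 listed genes of the oligosaccharyltransferase, 5 had every knockout library above every WT library, against 14.7% of all genes tested. With limma 0 of the 6 passed the threshold. At an unadjusted p under 0.05, 5 of the 6 were higher, against 8.91% of all genes tested, and 1 rose with voom, against 1.34%. Further subunits are in the wider set. There Stt3b and Magt1 also lay above WT in every knockout library, and the groups overlapped for Ost4, Krtcap2, Tmem258 and Tusc3. Rpn1 encodes ribophorin I, a subunit that delivers substrates to the catalytic centre. It stood at 36.5, 45.3 and 40.9 FPKM in WT and 78.6, 59.9 and 59.3 FPKM in knockout libraries (ratio 1.61, log2 difference 0.67 ± 0.16, adjusted p = 0.0631). Ddost, a non-catalytic subunit and the most abundant of the 6, stood at 62.2, 72.9 and 68.8 FPKM in WT and 112, 87.4 and 95.3 FPKM in knockout bone (ratio 1.45, adjusted p = 0.0971). Stt3a, the catalytic subunit that acts during translocation, had a ratio of 1.29 with little spread within either group, at 13.4 ± 0.332 and 17.2 ± 0.936 FPKM (adjusted p = 0.110). Ostc, which links the STT3A complex to the translocon, had a ratio of 1.51, and Rpn2 a ratio of 1.29. Dad1, a small structural subunit, stood at 18.6 ± 6.41 and 18.98 ± 4.998 FPKM (adjusted p = 0.947).

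The degradation genes did not share 1 pattern. Edem1 encodes a mannosidase-like protein that directs misfolded glycoproteins to degradation. It stood at 27.2, 25.4 and 26.9 FPKM in WT and 36.2, 41.0 and 42.5 FPKM in knockout bone. The groups did not overlap and the spread within WT was small (26.5 ± 0.960 to 39.9 ± 3.29 FPKM, ratio 1.504, log2 difference 0.57 ± 0.12, adjusted p = 0.0414). Edem1 (ENSMUSG00000030104) lies on chromosome 6 from 108828641 to 108859356, plus strand. Without any single library its adjusted p was 0.0657 to 0.166. Unlike most of the 38 genes, its lowest values in each group were those of WT replicate 2 and knockout replicate 1.

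Herpud1, Sel1l and Syvn1 form the membrane complex around the ubiquitin ligase HRD1, which Syvn1 encodes. Herpud1, the most abundant of the 4, stood at 54.4, 70.1 and 50.6 FPKM in WT and 58.5, 48.9 and 48.6 FPKM in knockout bone, so the groups overlapped (ratio 0.891, log2 difference -0.15 ± 0.16, adjusted p = 0.668). Sel1l had a ratio of 1.25 (adjusted p = 0.362) and Syvn1 a ratio of 1.025 (adjusted p = 0.927), both with overlap. Herpud1 and Dnajb9, both known stress-induced genes, differed little, while Hspa5 and Sdf2l1 rose. Creld2 and Manf, also stress-induced, had ratios of 1.95 and 1.90 without passing the threshold (adjusted p of 0.0760 and 0.101). These genes were set side by side after their values were seen, and the contrast between them was not tested.

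Since WT replicate 2 and knockout replicate 1 stood apart in the same way, the groups were also set against each other in 2 comparisons that share no library. Knockout replicate 1 minus WT replicate 2 gave a positive log2 difference in 33 of the 38 genes, with a median of 0.49, against 60.2% and 0.09 over all genes tested. The other 2 knockout libraries minus the other 2 WT libraries gave 35 of 38 and a median of 0.52, against 55.9% and 0.04. In both comparisons 32 of 38 genes (84.2%) were positive, against 45.3% of all genes. These are counts without a test, and the first comparison sets 1 library against 1. The 24 genes whose groups do not overlap, the 7 called ones included, are positive in both by construction. The same holds for only 14.7% of all genes tested, so the shares of 84.2% and 45.3% are not alike. The split of the same libraries is thus no second check on the difference. Sdf2l1 stood at 1.87 and 1.60, Hspa5 at 1.03 and 0.84, and Edem1 at 0.49 and 0.61. With both libraries left out of the fit, Sdf2l1, Hyou1 and Pdia6 of the 7 called genes rose, and Hspa5, Hsp90b1, Calr and Edem1 had adjusted p-values of 0.0562 to 0.0691. Creld2 and Pdia4 rose in that fit, so that 5 of the 38 did, against 0.621% of all genes in it.

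**Figure D3:**
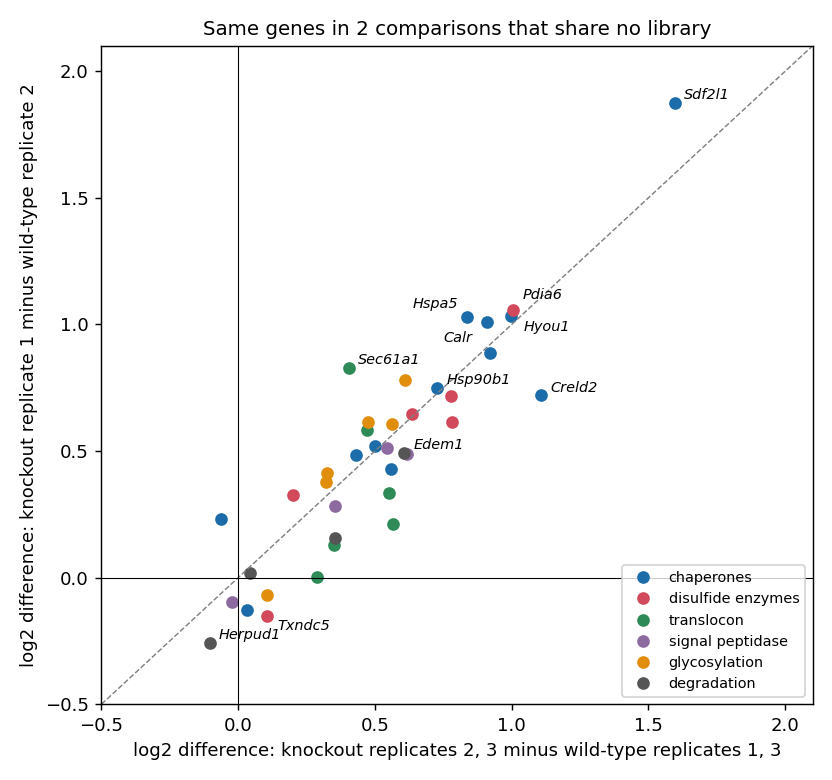
Log2 difference in log2(FPKM + 1) of each of the 38 ER genes in knockout replicates 2 and 3 minus WT replicates 1 and 3 (x axis) and in knockout replicate 1 minus WT replicate 2 (y axis); each point is a gene, coloured by function, and equal values lie on the dashed line. Most points, 32 of 38, lie above 0 on both axes, with Sdf2l1 at 1.60 and 1.87.

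A wider set of 118 other genes of the secretory pathway, listed by function, gave 116 tested genes. Of these 3 rose (2.59%) and 5 fell (4.31%), against 1.34% and 3.82% of all genes tested. In 34 of them (29.3%) every knockout library lay above every WT library and in 14 (12.1%) below, against 14.7% and 13.7%. Their median log2 difference was 0.16. The sensors and transcription factors of the stress response gave 0 calls in 14 by limma, with 2 higher and 1 lower at an unadjusted p under 0.05, near the 8.91% and 11.7% of all genes tested, and 1 higher with voom. Xbp1, which encodes the factor that IRE1 activates by splicing, stood at 58.0 ± 4.93 FPKM in WT and 88.9 ± 10.8 FPKM in knockout bone (log2 difference 0.60 ± 0.14, adjusted p = 0.0632), without overlap. It was the gene called by voom, with an adjusted p of 0.0368. Gene-level values do not tell the spliced form from the unspliced one. Atf6b, an ATF6 relative, had a log2 difference of 0.49 (adjusted p = 0.0637). The log2 differences of the sensors were 0.14 for Atf6, 0.30 ± 0.24 for Ern1 (IRE1) and -0.07 for Eif2ak3 (PERK), and those of the PERK-arm factors were 0.19 for Atf4 and -0.15 for Ddit3 (CHOP). None of these 5 passed the threshold (adjusted p of 0.548 to 0.777). Creb3l1, the OASIS factor of osteoblasts, stood at 7.19 ± 2.62 and 2.91 ± 0.817 FPKM (log2 difference -1.04, adjusted p = 0.0752).

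The other folding enzymes and chaperones split in direction, with 18 of 29 log2 differences positive. Of the 29, 1 was called higher (3.45%) and 4 lower (13.8%), against 1.34% and 3.82% of all genes tested. The gene that rose was Ero1l, which encodes the oxidase that recharges disulfide isomerases, from 12.02 ± 1.44 to 20.2 ± 2.102 FPKM (log2 difference 0.71, adjusted p = 0.0355). Those that fell were Fkbp9, from 31.99 ± 4.49 to 13.3 ± 0.2996 FPKM (-1.20, 0.0102), Fkbp14, from 3.74 ± 1.19 to 1.12 ± 0.1003 FPKM (-1.13, 0.0312), Ppic (-1.019, 0.0410) and Serpinh1 (-1.31, 0.0447). The last 2 are named after their values were seen. Fkbp9 and Fkbp14 encode prolyl isomerases and Serpinh1 encodes HSP47, the collagen-specific chaperone. Ero1l lost its call without each single library in turn (adjusted p of 0.0643 to 0.130), as did Fkbp14 without 5 of the 6, while Fkbp9 had an adjusted p of 0.0519 without WT replicate 1 and 0.0553 without knockout replicate 2. Ppic kept its call only without WT replicate 3 (0.0375, and 0.0757 to 0.142 without each other library) and Serpinh1 only without knockout replicate 1 (0.0421, and 0.0676 to 0.158).

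The glycan genes of the wider set include further oligosaccharyltransferase subunits, such as Stt3b and Ost4. Of its 20 tested genes 2 rose (10%) and 0 fell, against 1.34% and 3.82% of all genes tested. In 9 (45%) every knockout library lay above every WT library, against 14.7%. Magt1, an oxidoreductase subunit of the STT3B form of the oligosaccharyltransferase, went from 16.8 ± 0.883 to 25.1 ± 1.80 FPKM (log2 difference 0.55, adjusted p = 0.0404). Alg8, a glucosyltransferase of the lipid-linked precursor, went from 5.06 ± 0.496 to 7.88 ± 0.574 FPKM (0.55, 0.0424). Neither was called without any single library, with adjusted p of 0.0717 to 0.142 for Magt1 and 0.0656 to 0.147 for Alg8. The first trimming glucosidase, Mogs, had a log2 difference of 0.62 (adjusted p = 0.0550). The median over these 20 genes was 0.35.

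Targeting and translocation genes outside the list gave 0 calls in 14 and a median of 0.15, with 1 higher at an unadjusted p under 0.05, near the share of all genes tested, and 0 with voom. In 2 (14.3%) every knockout library lay above every WT library and in 1 (7.14%) below, against 14.7% and 13.7% of all genes tested. Other degradation genes gave 0 calls in 20 and a median of 0.14, likewise with 1 by unadjusted p and 0 with voom, and the largest of the named values was 0.44 for Edem2. In 7 of these 20 (35%) every knockout library lay above every WT library and in 1 (5%) below. Genes of vesicles between ER and Golgi had a median of 0.15, and in 6 of 19 (31.6%) every knockout library lay above every WT library and in 2 (10.5%) below. They gave 1 lower call (5.26%), against 3.82% of all genes tested. The call was Kdelr3, which encodes a receptor that retrieves ER proteins, from 14.8 ± 6.88 to 3.74 ± 1.97 FPKM (log2 difference -1.73, adjusted p = 0.0464). It was above 0.05 without each single library in turn (0.0540 to 0.148).

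**Figure D4:**
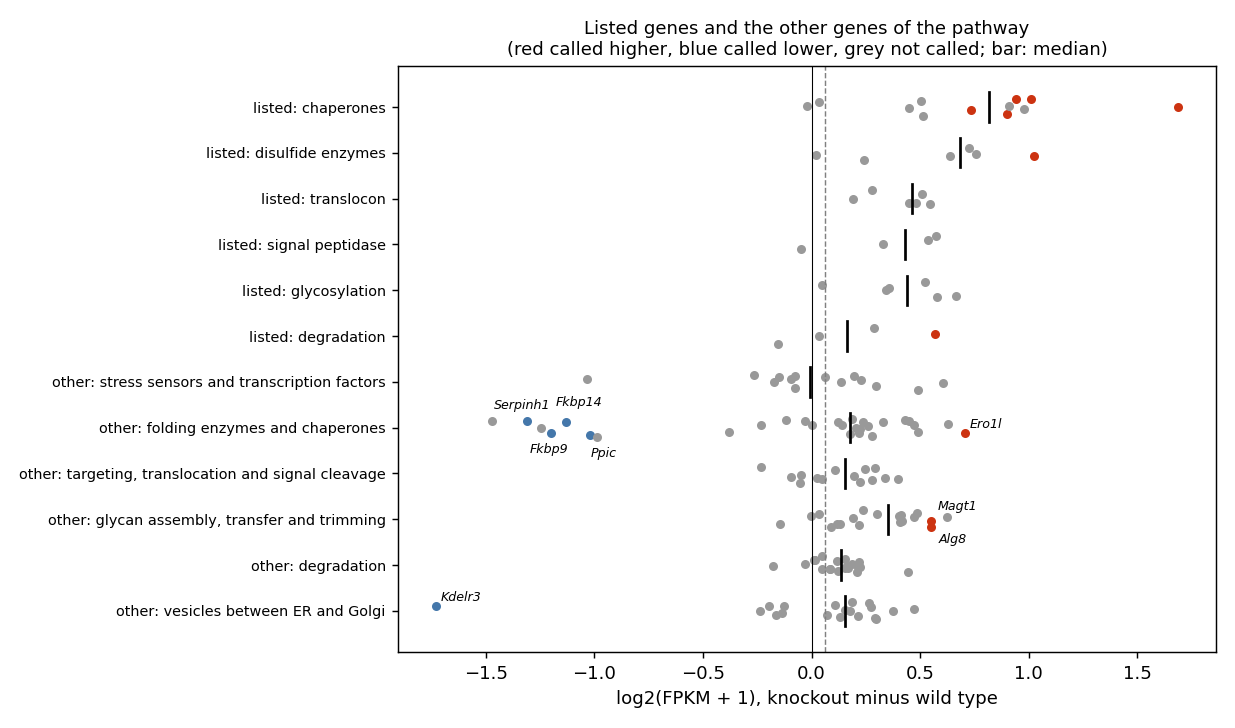
Log2 difference in log2(FPKM + 1), knockout minus WT, for the 38 ER genes by function and for the 116 other tested genes of the secretory pathway by list; each point is a gene, red if called higher, blue if called lower and grey if not called, black bars are medians of the lists and the dashed line is the median of all genes tested. Medians run from 0.82 for the chaperones to -0.01 for the stress sensors and transcription factors.

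The deleted microRNAs share a seed (bases 2 to 8, in capitals) with the rest of the miR-29 family, and RefSeq gives the mature 3p strands as follows. An identical miR-29b-3p is also encoded by Mir29b-1 on chromosome 6, next to Mir29a and outside the deleted cluster.

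mmu-miR-29b-3p: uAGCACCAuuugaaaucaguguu
mmu-miR-29c-3p: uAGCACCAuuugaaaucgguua

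A match to that seed, TGGTGCT, was present in an annotated 3′ UTR of 5 of the 38 genes (13.2%), against 18.75% of the 11724 tested genes with an annotated 3′ UTR. The 5 were Dnajb11, Txndc11, Rpn1, Ostc and Sel1l, with 1 match each, and none of them was among the 7 called genes. The site in Rpn1, whose adjusted p was the smallest of the 5, is shown with the seed match in capitals.

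Rpn1: gtgaagggcccTGGTGCTtgag

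The median log2 difference was 0.51 for the 5 genes with a match and 0.51 for the 33 without. Over all tested genes it was 0.06 with a match and 0.05 without.

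Many markers of the cell types of bone, marrow and adjoining tissue such as muscle and tendon differed between the groups. The part of these cell types in the ER gene differences was not tested. The label of bone was borne out in both groups by the osteoblast gene Bglap, at 682 ± 296 FPKM in WT and 237 ± 154 FPKM in knockout libraries. Col1a1 stood at 469 ± 87.2 FPKM in WT and 222 ± 105 FPKM in knockout libraries. The summed level of 10 osteoblast markers was 2047 to 3948 FPKM in WT and 795 to 1733 FPKM in knockout bone, a ratio of 0.392. Of the 10, 0 rose and 3 fell, against 1.34% and 3.82% of all genes tested. In 9 of them every knockout library lay below every WT library, against 13.7% of all genes tested. Of 10 chondrocyte markers 9 fell, of 5 tested adipocyte markers 5 fell, and of 6 tendon and fibroblast markers 6 fell. The share of all genes tested that fell was 3.82%. The ratios of summed levels were 0.0988, 0.154 and 0.238 for these lists, in that order. The markers of osteocytes, osteoclasts and skeletal muscle summed to ratios of 0.588, 0.449 and 0.447. Not every osteocyte marker followed its sum. Of the 5 tested 3 fell, against 3.82% of all genes tested, and Sost overlapped with a ratio of 0.889. Fgf23, too low to be tested, lay above WT in every knockout library, at 0.128 ± 0.113 FPKM in WT and 0.965 ± 0.521 FPKM in knockout libraries. The 7 muscle markers stood at 3451 to 6168 FPKM in WT and 1736 to 2558 FPKM in knockout libraries, so the samples of both groups held muscle RNA.

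Markers of blood-forming cells went both ways. Of 6 neutrophil precursor markers 4 rose (Mpo, Prtn3, Ctsg and Ms4a3), against 1.34% of all genes tested. The sum of the 6 went from 1035 to 1468 FPKM in WT to 2582 to 3785 FPKM in knockout bone, a ratio of 2.46. The 6 mature neutrophil markers summed to 16618 to 31979 FPKM in WT and 30862 to 40467 FPKM in knockout bone, with 0 calls by limma. In 4 of them every knockout library lay above every WT library, against 14.7% of all genes tested. The 10 plasma cell markers summed to overlapping ranges, 3567 to 7479 and 2516 to 4578 FPKM. In every knockout library 5 of the 10 lay below WT and 1 above, against 13.7% and 14.7% of all genes tested. Among the 10, Igha rose with a ratio of 4.14 (adjusted p = 0.0211), and Sdc1, which encodes the surface marker syndecan-1, fell from 13.7 ± 2.73 to 5.90 ± 1.14 FPKM (adjusted p = 0.0287). Mzb1, an ER protein of antibody-secreting cells, stood at 49.6 ± 13.1 and 31.6 ± 9.004 FPKM (adjusted p = 0.232). Of 6 B cell precursor markers 2 fell, Vpreb1 with a ratio of 0.165 (adjusted p = 0.0220) and Igll1 with 0.189 (0.0254), and 4 lay below WT in every knockout library. The shares of all genes tested were 3.82% and 13.7%. Of 6 monocyte and macrophage markers 1 fell, against the same 3.82%. This was Csf1r, with a ratio of 0.613 (adjusted p = 0.0276). In 2 of the 6 every knockout library lay below every WT library and in 1 above, against 13.7% and 14.7% of all genes tested. The 1 above was Cd163, with a ratio of 1.96 (adjusted p = 0.0552), and the groups overlapped for the other 3. The megakaryocyte markers summed to a ratio of 1.40 with 0 calls in 3 by limma. The erythroid markers overlapped, at 25572 to 54559 and 24837 to 44717 FPKM. At least 1 library was at 0 for 1 osteocyte, 1 chondrocyte and 1 adipocyte marker.

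**Figure D5:**
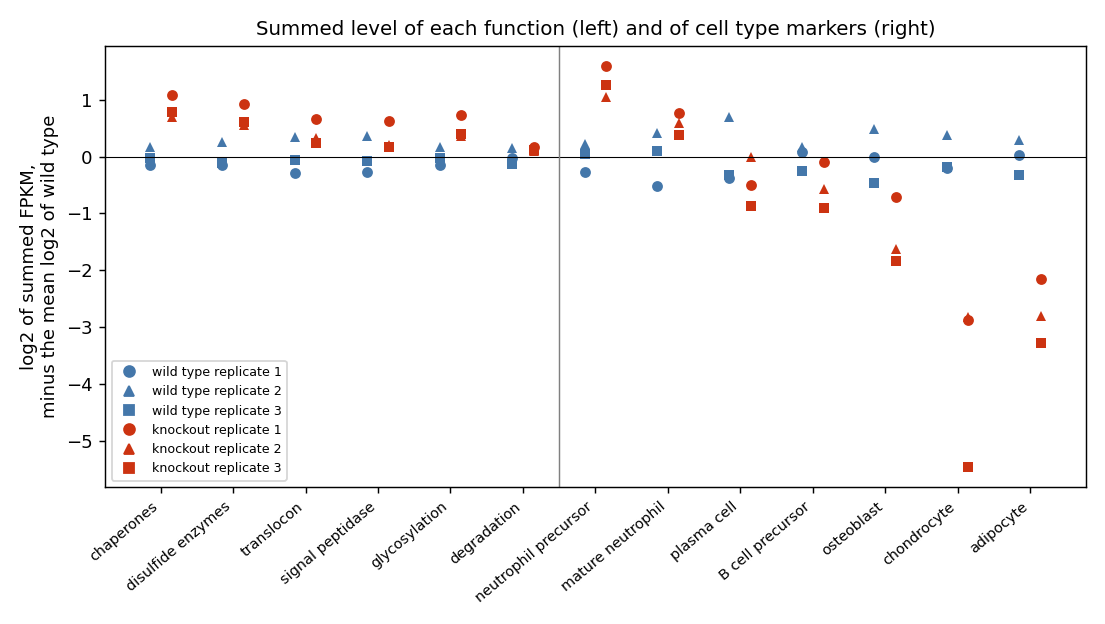
Log2 of the summed FPKM of each function of the 38 ER genes (left) and of 7 cell type marker lists (right), minus the WT mean of the same sum; each point is 1 library, blue for WT and red for knockout, with a marker shape for each replicate number. The chondrocyte and adipocyte sums lie far lower in the knockout libraries, at ratios of 0.0988 and 0.154, the neutrophil precursor sum lies higher at a ratio of 2.46, and the chaperone sum lies higher at 1.81.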

How the data were processed

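The authors deposited FPKM values for 54532 genes, 1 column per library. Per the labels' protocols, RNA was taken from frozen bone with Trizol and libraries were made with a TruSeq kit. Build mm10 and the aligner Bowtie 0.12.2 are named in the submitters' processing notes. How reads were counted and scaled, with which annotation and with what use of strand, is not given in the sources used here. Groups and replicate numbers come from the sample titles. Identifiers were matched to GENCODE M21 for 54495 genes, and 37 did not match.

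The groups were compared in limma 3.58.1 (R 4.3.3) on log2(FPKM + 1), with a variance trend and no covariates, over the 13619 genes with a mean of at least 1 FPKM. Adjustment was by Benjamini-Hochberg at 0.05, and all adjusted p-values for genes are limma's. The pseudocount makes log2 differences of low genes smaller than their true size, and ratios are of mean FPKM. FPKM multiplied by exon length gave whole reads for 96.96% of 29600 genes above 0, within 0.01 reads, or within 0.001% for high counts. The share without whole reads was 32.3% on chromosomes 17 to 19 and 0.104% elsewhere. Sec11c and Syvn1 were left out of voom for that reason, and the other 36 genes had 565 to 17763 reads per library.

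All 38 genes were reported. Every library's value is given for called genes and for the smallest p and the highest mean of each function, and Canx and Creld2 were added after their values were seen. Up to 3 genes with the smallest p were named in each wider list, besides Xbp1, Atf4, Atf6, Ern1, Eif2ak3 and Ddit3. The genes and lists were chosen with earlier results of these data known. Promoter and microRNA sequences are from RefSeq (GRCm38.p6), and 3′ UTRs from GENCODE M21. Protein ends were not analysed here. The limma step was tested on simulated data. Figures were drawn with matplotlib 3.10.9.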

Additional observations from a re-analysis of the deposited data

How the results depend on the processing

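The median log2 difference of the 38 genes stayed between 0.42 and 0.59 under the 19 alternative settings, and 0 of them fell under any. The number that rose, 7, depended on the setting. It was 2 with no filter on low values, 15 with equal FPKM totals, 29 with array weights, 16 with each library's exon-length trend removed, 12 with voom, and 1 to 5 with a single library left out, in fits with fewer samples. Of all genes in these fits 0.145%, 1.021%, 11.4%, 2.78%, 1.34% and 0.104% to 0.566% rose. Calls over all genes, 703 with the settings used, were 143 with no filter, 365 with a mean of at least 5 FPKM, 505 with equal totals, 775 with voom, 3354 with array weights, 1216 with the length trend removed, 62 to 409 with a single library left out and 238 without both libraries that stand apart. The cause of these shifts was not tested. Sdf2l1 was called in 19 of 19 settings, Hyou1 in 17, Pdia6 in 12, Hspa5 and Calr in 10, and Hsp90b1 and Edem1 in 8. With the replicate number as a block, 1 of the 38 genes and 127 of all genes were called. Same-numbered libraries did not deviate together (r of -0.49, -0.27 and 0.16), and the main fit used no pairing. These r values also carry the shift of both libraries that stand apart, whose numbers differ (r of 0.55). They therefore cannot show whether the replicate numbers are a pairing.

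Among the 38 genes and the other named genes of the pathway, signs turned for 9, none of them called and all between -0.15 and 0.14 in log2 difference. Txndc5 was at -0.0124 with median-of-ratios scaling, -0.0141 with equal FPKM totals, -0.0110 with the length trend removed, -0.0193 with voom and -0.0723 to 0.156 with a single library left out. Dnajb9 was at 0.0884 with array weights, 0.0330 without both libraries that stand apart and -0.138 to 0.127 with 1 left out. Ppib was at -0.0896 with array weights, -0.0029 with voom, -0.0643 without both and -0.0955 to 0.104 with 1 left out. Eif2ak3 was at 0.0163 with array weights. With a single library left out, Dad1 ran from -0.149 to 0.302, Spcs1 from -0.235 to 0.164, Syvn1 from -0.0621 to 0.134, Atf6 from -0.0179 to 0.255 and Ddit3 from -0.304 to 0.0357.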
